A study of Mus musculus with 4 samples.

Results

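The circadian clock of the liver and the genes it drives were described here as 28 genes chosen by name, out of 50584 gene symbols in the deposited count tables, and all 28 were present. They cover the clock's activators, its repressors, the nuclear receptors and leucine zipper factors that link it to other genes, a set of output enzymes, and kinases that act on clock proteins. Their mRNA was measured by poly(A) RNA sequencing in 2 livers of DBA/2J mice and 2 livers of C57BL/6J mice. Both are inbred strains, and all 4 animals were wild-type (WT) males of 14 weeks on a chow diet, with no treatment given in the labels. The only comparison that the labels allow is strain, and all log2 values between strains are DBA/2J over C57BL/6J. Nothing beyond the series' mention of 2 mice per strain says that the libraries of a strain were raised or collected apart, so p-values measure the spread between these libraries. The labels give no hour of tissue collection, so strain and the time of day at collection cannot be told apart. C57BL/6J replicate 1 stood apart from the other 3 libraries in genes of the acute phase response, whose summed levels are given at the end.

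The mammalian clock is a loop in which a dimer of ARNTL (also called BMAL1) with CLOCK or NPAS2 binds E-box sequences and switches on the Per and Cry genes, whose proteins then block the dimer. A second loop runs through NR1D1 and NR1D2 (REV-ERB), which repress Arntl at RORE sites that RORA activates. A further loop runs through DBP, TEF and HLF, which activate at D-box sites that NFIL3 represses. In mouse liver the activator genes Arntl, Clock and Npas2, with Nfil3 and Cry1, are known to peak late in the night or near its end, and are called night-phase genes below. The Per genes, the REV-ERB genes, Dbp, Tef, Hlf, Ciart, Bhlhe41 and the outputs Usp2, Tspan4, Lonrf3, Nampt, Por and Wee1 are known to peak by day or around dusk, and are called day-phase genes. The remaining 7 genes (Cry2, Bhlhe40, Rora, Csnk1d, Csnk1e, Timeless and Upp2) were given no phase.

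The 250 bases before the transcription start are printed for 5 genes whose values are described below: Arntl and Por, which differed between the strains, and Ciart, Per3 and Nfil3, which did not pass the test, differed between libraries of a strain and hold matches to the motifs searched. The sequences are from RefSeq on GRCm38.p6, the C57BL/6J reference, each written 5′ to 3′ on the strand of its gene. Capitals mark an E-box (CACGTG), a D-box (searched as TTANNTAA) or an RORE core (TAGGTCA on either strand), and the windows of Arntl and Por hold none of these. The starts are those of RefSeq and can differ from the first exon of the counted gene. The Por window lies inside the span of the counted gene. The windows of Ciart and Nfil3 partly overlap theirs, and the Nfil3 match lies in the overlap.
Ciart, chr3:95882229-95882478, minus strand: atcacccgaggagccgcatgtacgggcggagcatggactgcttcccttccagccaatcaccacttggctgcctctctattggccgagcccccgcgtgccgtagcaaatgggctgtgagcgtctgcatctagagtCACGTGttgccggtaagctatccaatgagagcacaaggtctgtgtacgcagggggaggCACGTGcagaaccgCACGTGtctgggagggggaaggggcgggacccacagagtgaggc
Per3, chr4:151044666-151044915, minus strand: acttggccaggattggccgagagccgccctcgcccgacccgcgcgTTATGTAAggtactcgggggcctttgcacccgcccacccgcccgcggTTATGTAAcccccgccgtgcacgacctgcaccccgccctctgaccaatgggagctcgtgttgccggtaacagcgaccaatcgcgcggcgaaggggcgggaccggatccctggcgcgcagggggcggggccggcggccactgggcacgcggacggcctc
Nfil3, chr13:52981040-52981289, minus strand: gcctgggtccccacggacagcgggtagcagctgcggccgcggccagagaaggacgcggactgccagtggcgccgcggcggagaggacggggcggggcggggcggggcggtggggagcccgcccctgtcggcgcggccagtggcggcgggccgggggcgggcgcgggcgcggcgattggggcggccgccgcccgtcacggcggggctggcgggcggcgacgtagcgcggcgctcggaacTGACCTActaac
Arntl, chr7:113207215-113207464, plus strand: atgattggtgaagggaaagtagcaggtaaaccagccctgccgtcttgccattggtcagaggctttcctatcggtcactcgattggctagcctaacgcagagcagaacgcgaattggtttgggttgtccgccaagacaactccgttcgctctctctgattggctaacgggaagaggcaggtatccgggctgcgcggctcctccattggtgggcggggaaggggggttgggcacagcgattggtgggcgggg
Por, chr5:135688895-135689144, plus strand: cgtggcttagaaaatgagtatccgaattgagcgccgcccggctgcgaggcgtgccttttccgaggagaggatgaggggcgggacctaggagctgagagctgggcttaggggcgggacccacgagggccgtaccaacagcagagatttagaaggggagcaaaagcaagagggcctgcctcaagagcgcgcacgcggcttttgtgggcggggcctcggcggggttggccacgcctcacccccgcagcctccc
The Ciart window holds 3 E-boxes, starting 116, 58 and 44 bases before the start, and the Per3 window 2 D-boxes, starting 205 and 158 bases before it. The Nfil3 window holds 1 RORE core, read on the opposite strand. Windows were found for 24 of the 28 genes, some with several starts. For 26 of 34 windows, bases just after the start occurred in an annotated transcript of the gene. A window with an E-box was found for 7 of these 24 genes (Bhlhe41, Ciart, Cry1, Lonrf3, Per1, Tef and Tspan4), where 6.86% of 27025 symbols had one. A D-box was found for 4 (Lonrf3, Per3, Tef and Timeless), against 6.30% of symbols, and an RORE core for Nfil3 alone, against 2.55%. The cyclic AMP response element TGACGTCA was found for Hlf alone, against 1.77%. A match describes letters in this window and is not evidence of binding.

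Of the 28 genes, 3 were higher in DBA/2J (Arntl, Clock and Rora) and 3 were lower (Por, Bhlhe40 and Nampt) in edgeR's quasi-likelihood test with Benjamini-Hochberg adjustment over all tested genes, at an adjusted p below 0.05. Of 15647 genes tested, 18.2% were called in either direction, 9.29% higher and 8.87% lower, so the share of clock genes called was near that of all genes. Scaling by library totals alone turned the counts over all genes from 1454 higher and 1388 lower into 1924 higher and 1024 lower, with the clock genes still at 3 and 3. The median log2 difference was -0.03 over the 28 genes and 0.01 over all tested genes. The libraries of the strains did not overlap for 15 of the 28 genes, against 63.8% of all tested genes. Of the 5 night-phase genes 2 were higher and 0 lower in edgeR (3 higher and 0 lower at an unadjusted p below 0.05, and 2 and 0 in DESeq2). The gene added at the unadjusted p was Npas2, which passed the filter on low counts only through DBA/2J and adds no support. Of the 16 day-phase genes 0 were higher and 2 lower in edgeR (2 higher and 4 lower at an unadjusted p below 0.05, and 0 and 2 in DESeq2). Median log2 differences were 0.54 for the night-phase genes and -0.15 for the day-phase genes. The night-phase median includes Npas2, at 1.34, so it is a description only.

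Each of the 6 calls rested on having both DBA/2J libraries. Without DBA/2J replicate 1, 0 of the 28 genes were called by edgeR (8 at an unadjusted p below 0.05), and without DBA/2J replicate 2 again 0 (7 at an unadjusted p below 0.05). All 6 kept their direction in these fits. Calls over all genes also dropped there, to 186 higher and 106 lower without DBA/2J replicate 1 and, without DBA/2J replicate 2, to 199 higher and 114 lower. Without C57BL/6J replicate 1 there were 3 higher and 6 lower clock genes, and without C57BL/6J replicate 2 there were 7 higher and 5 lower. Leaving out a C57BL/6J library kept the 6 calls and added Per2, Ciart and Usp2 as lower genes without replicate 1. Without replicate 2 it added Per3, Dbp, Hlf and Cry2 as higher genes and Nfil3 and Tspan4 as lower ones.

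**Figure D1:**
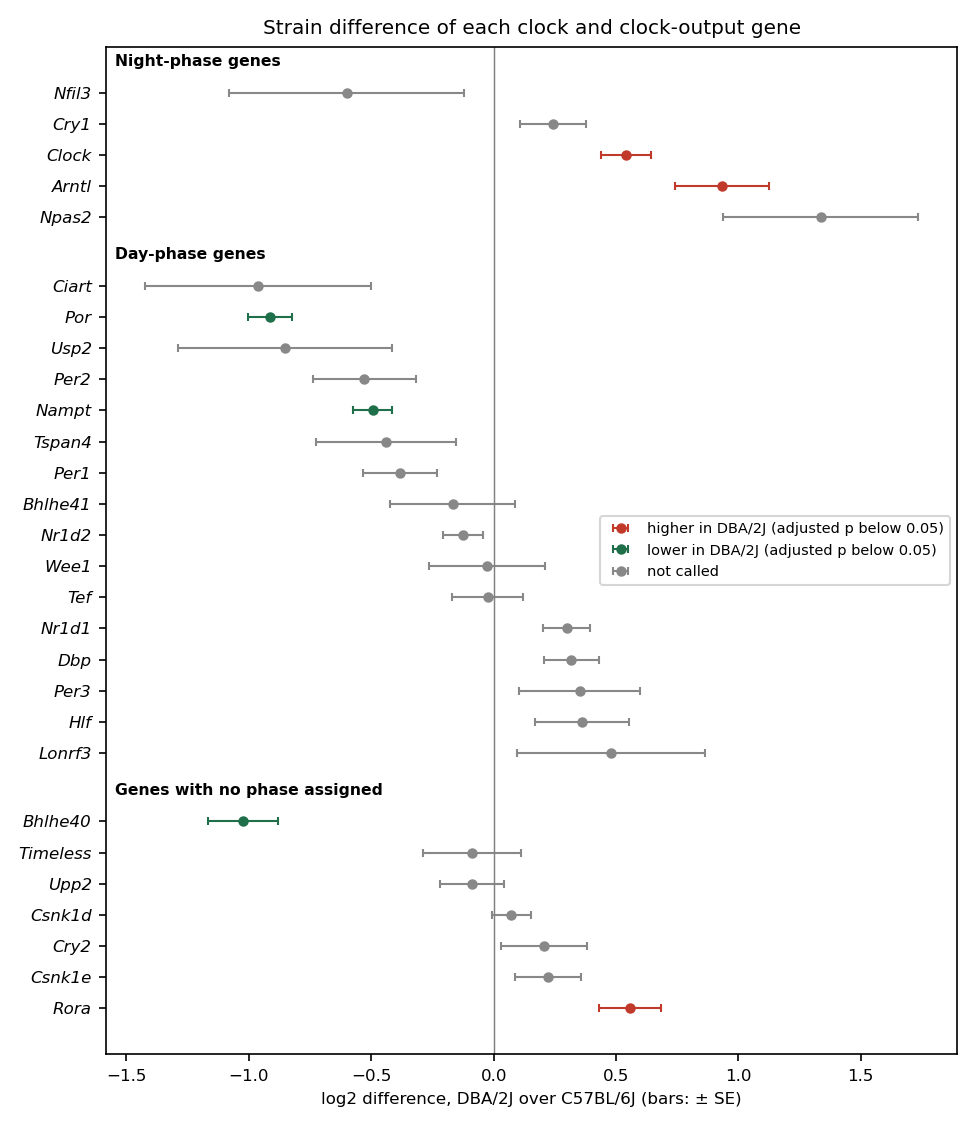
Log2 difference, DBA/2J over C57BL/6J, of each of the 28 genes (points) with its standard error (bars), grouped by known phase in mouse liver; red points were called higher in DBA/2J, green points lower and grey points neither. Arntl, Clock and Rora stand right of 0 at 0.93, 0.54 and 0.56, and Bhlhe40, Por and Nampt left of it at -1.02, -0.91 and -0.49.

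In the activator complex Arntl and Clock were higher in DBA/2J livers by the test, and Npas2 differed in its values without passing it. Arntl, the obligate partner in the activating dimer (chromosome 7, 113207465 to 113314126, GRCm38, forward strand), gave 276 and 264 reads in the DBA/2J livers (replicates 1 and 2), against 135 and 136 reads in the C57BL/6J livers. Scaled to library size as CPM, a gene's share of all reads, this was 5.72 and 4.77 CPM in DBA/2J, against 2.77 and 2.72 CPM in C57BL/6J. Both DBA/2J livers lay above both C57BL/6J livers, which were nearly equal. Arntl was 1.91-fold higher in DBA/2J, a log2 difference of 0.93 ± 0.19 (SE), with an edgeR adjusted p of 0.0273. The log2 difference was 0.78 without DBA/2J replicate 1 (adjusted p = 0.266) and 1.05 without DBA/2J replicate 2 (adjusted p = 0.154).

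Clock, which encodes the partner of ARNTL in most tissues, had 67.6 and 57.7 CPM in DBA/2J, against 43.8 and 42.2 CPM in C57BL/6J. Again the strains did not overlap, and Clock was 1.45-fold higher in DBA/2J (log2 0.54 ± 0.10 SE, edgeR adjusted p = 0.0218). Npas2, a close relative of Clock that can take its place, gave 24 and 24 reads in the DBA/2J livers, against 9 and 9 reads in the C57BL/6J livers. These are low counts, and Npas2 met the minimum of 10 counts in DBA/2J only, so it entered the test through the strain in which it was higher. Its count ratio was 2.54, with an exact 95% interval from 1.45 to 4.64 for counting error only. The log2 difference of 1.34 ± 0.40 did not pass the test (edgeR adjusted p = 0.0725). Cry1, the repressor among the night-phase genes, had 9.47 and 9.94 CPM in DBA/2J, against 7.76 and 8.68 CPM in C57BL/6J. Both DBA/2J livers lay above both C57BL/6J livers by a narrow margin, and the difference did not pass the test (log2 0.24, edgeR adjusted p = 0.261).

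Nfil3, the D-box repressor, differed more within C57BL/6J than between strains. It had 39.1 and 28.8 CPM in DBA/2J replicates 1 and 2, and 77.0 and 26.0 CPM in C57BL/6J replicates 1 and 2. C57BL/6J replicate 1 stood apart from the other 3 libraries, which lay between 26.0 and 39.1 CPM. The log2 difference was -0.60 ± 0.48 (edgeR adjusted p = 0.422). It was 0.38 without C57BL/6J replicate 1 (adjusted p = 0.135) and -1.18 without C57BL/6J replicate 2, where Nfil3 was called (adjusted p = 9.95e-04).

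The 3 Period genes, whose proteins form the repressing complex with the cryptochromes, did not differ in the same direction. Per1 had 44.7 and 59.7 CPM in DBA/2J, against 64.4 and 71.7 CPM in C57BL/6J. Per2 had 38.2 and 48.6 CPM in DBA/2J, against 50.3 and 74.9 CPM in C57BL/6J. For both genes the DBA/2J livers were the lower ones with no overlap, but neither passed the test (log2 -0.38 ± 0.15 and -0.53 ± 0.21, edgeR adjusted p = 0.135 and 0.140). Per2 was called lower without C57BL/6J replicate 1 (log2 -0.79, edgeR adjusted p = 0.00424). Per3, the member least needed for rhythm in mice, had 44.4 and 58.8 CPM in DBA/2J, against 31.1 and 49.8 CPM in C57BL/6J. Its libraries overlapped between strains, and its log2 difference was positive, at 0.35 ± 0.25 (edgeR adjusted p = 0.360), and called without C57BL/6J replicate 2 (0.73, edgeR adjusted p = 0.0105).

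Among the other repressors Bhlhe40 carried the clearest difference. Bhlhe40 encodes DEC1, a repressor that competes with the ARNTL dimer for E-boxes and also responds to signals outside the clock. It had 190.2 and 191.7 CPM in DBA/2J, against 442 and 334 CPM in C57BL/6J. The DBA/2J livers were nearly equal and both lay far below the C57BL/6J livers, a 2.03-fold lower level (log2 -1.02 ± 0.14 SE, edgeR adjusted p = 0.0101). Without C57BL/6J replicate 1, its highest library, the log2 difference was -0.81 and still called (edgeR adjusted p = 5.79e-04). Its paralogue Bhlhe41 (DEC2) was far less abundant, at 7.09 and 9.42 CPM in DBA/2J, against 7.26 and 11.3 CPM in C57BL/6J, and overlapped between strains (log2 -0.17, edgeR adjusted p = 0.683). Cry2 had 51.7 and 54.8 CPM in DBA/2J, against 37.7 and 54.5 CPM in C57BL/6J (log2 0.21, edgeR adjusted p = 0.448). It was called higher without C57BL/6J replicate 2 (0.49, edgeR adjusted p = 0.00595) and stood at -0.04 without C57BL/6J replicate 1.

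Ciart (Chrono), a repressor of the ARNTL dimer whose promoter window above holds 3 E-boxes, varied widely between the libraries of each strain. It had 13.3 and 23.5 CPM in DBA/2J replicates 1 and 2, and 20.7 and 51.0 CPM in C57BL/6J replicates 1 and 2. Replicate 2 was 1.77-fold replicate 1 in DBA/2J and 2.47-fold in C57BL/6J, and the strains overlapped. The log2 difference of -0.96 ± 0.46 did not pass the test (edgeR adjusted p = 0.200). It was -1.47 and called without C57BL/6J replicate 1 (edgeR adjusted p = 0.00439), and -0.17 without C57BL/6J replicate 2.

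Of the 3 nuclear receptor genes of the second loop, 1 passed the test. Rora, the activator at ROREs, had 87.5 and 76.6 CPM in DBA/2J, against 50.2 and 61.3 CPM in C57BL/6J. The DBA/2J livers were both above the C57BL/6J livers, and Rora was 1.47-fold higher (log2 0.56 ± 0.13 SE, edgeR adjusted p = 0.0355). Nr1d1, the REV-ERBα gene and a direct repressor of Arntl, had 212 and 242 CPM in DBA/2J, against 189 and 179.8 CPM in C57BL/6J. Both DBA/2J livers lay above both C57BL/6J livers, as for Arntl, without passing the test (log2 0.30 ± 0.10, edgeR adjusted p = 0.0865). Nr1d2 (REV-ERBβ) had 94.96 and 102.6 CPM in DBA/2J, against 108 and 107 CPM in C57BL/6J, a log2 difference of -0.13 (edgeR adjusted p = 0.318). Exons of Nr1d1 overlap those of Thra, which had 24.98 and 28.3 CPM in DBA/2J, against 22.2 and 19.6 CPM in C57BL/6J. The counting carried no strand option, so reads from the shared exon bases cannot be assigned to a gene by strand.

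None of the 3 PAR leucine zipper genes, which carry the clock's signal to detoxification genes in liver, passed the test. The libraries of the strains did not overlap for Dbp and Hlf and overlapped for Tef. Dbp had 85.7 and 102.5 CPM in DBA/2J, against 72.3 and 78.7 CPM in C57BL/6J. Both DBA/2J livers were above both C57BL/6J livers by a narrow margin, and the log2 difference of 0.32 ± 0.11 did not pass the test (edgeR adjusted p = 0.105). It was called without C57BL/6J replicate 2 (0.38, edgeR adjusted p = 0.0441). Hlf had 79.1 and 78.6 CPM in DBA/2J, against 48.7 and 73.9 CPM in C57BL/6J (log2 0.36, edgeR adjusted p = 0.238), and was also called without C57BL/6J replicate 2 (0.69, edgeR adjusted p = 9.38e-04). Tef, the most abundant of the 3, had 239.7 and 261 CPM in DBA/2J, against 220.1 and 289 CPM in C57BL/6J. Its DBA/2J libraries lay inside the range of the C57BL/6J libraries, with a log2 difference of -0.02 that turned to 0.057 when libraries were scaled by their totals alone.

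Por, an output enzyme gene, had the lowest adjusted p of the 28 genes. It encodes the reductase that passes electrons to all microsomal cytochrome P450 enzymes (chromosome 5, 135670033 to 135735326, GRCm38, forward strand). It gave 10347 and 12786 reads, or 214 and 231 CPM, in DBA/2J livers, against 20007 and 21445 reads, or 411 and 429.7 CPM, in C57BL/6J livers. The libraries of each strain were close together, and Por was 1.89-fold lower in DBA/2J (log2 -0.91 ± 0.09 SE, edgeR adjusted p = 0.00324). Leaving out the first DBA/2J library gave a log2 difference of -0.88 with an adjusted p of 0.0763, and leaving out the other gave -0.97 with 0.0589. Nampt, the rate-limiting enzyme of NAD salvage, had 47.0 and 49.2 CPM in DBA/2J, against 68.7 and 66.7 CPM in C57BL/6J. Its replicates were as tight, and it was 1.41-fold lower in DBA/2J (log2 -0.49 ± 0.08 SE, edgeR adjusted p = 0.0133).

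The other outputs did not pass the test. Usp2, a deubiquitinase gene that follows Dbp in phase, had 21.9 and 30.4 CPM in DBA/2J, against 26.1 and 68.4 CPM in C57BL/6J. C57BL/6J replicate 2 was more than 2-fold above the other 3 libraries, so that the log2 difference of -0.85 (edgeR adjusted p = 0.226) became 0.0021 without that library, and -1.39 without C57BL/6J replicate 1 (edgeR adjusted p = 6.45e-04). Tspan4, a tetraspanin gene, had 42.1 and 43.9 CPM in DBA/2J, against 76.5 and 40.0 CPM in C57BL/6J. Here it was C57BL/6J replicate 1 that stood apart, and the log2 difference of -0.44 (edgeR adjusted p = 0.328) was 0.099 without it and -0.83 without C57BL/6J replicate 2 (edgeR adjusted p = 3.47e-04). Wee1, which encodes the kinase that holds back entry into mitosis, had 9.31 and 12.1 CPM in DBA/2J, against 8.72 and 13.1 CPM in C57BL/6J (log2 -0.03, and 0.057 with scaling by library totals). Upp2, a liver uridine phosphorylase gene, had 506 and 505 CPM in DBA/2J, against 477 and 597 CPM in C57BL/6J (log2 -0.09). Lonrf3, a ring finger protein gene, gave 68 and 57 reads in the DBA/2J livers, against 30 and 56 reads in the C57BL/6J livers, and a log2 difference of 0.48 ± 0.38. Exons of Usp2 overlap those of Rnf26, exons of Tspan4 those of Chid1 and exons of Dbp those of Sphk2.

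None of 3 genes of the protein machinery around the loop passed the test, by edgeR at an adjusted or unadjusted p below 0.05 or by DESeq2. Csnk1d and Csnk1e encode the casein kinases that mark PER proteins for breakdown. Csnk1d ranged from 84.3 to 89.1 CPM in DBA/2J and from 80.1 to 84.8 CPM in C57BL/6J (log2 0.07, edgeR adjusted p = 0.571). Csnk1e ranged from 9.39 to 9.65 CPM in DBA/2J and from 7.67 to 8.66 CPM in C57BL/6J (log2 0.22, edgeR adjusted p = 0.299). Timeless, named after the fly clock gene and known in mammals mainly for DNA replication, had 5.70 and 6.07 CPM in DBA/2J, against 7.26 and 5.27 CPM in C57BL/6J (log2 -0.09, edgeR adjusted p = 0.788).

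**Figure D2:**
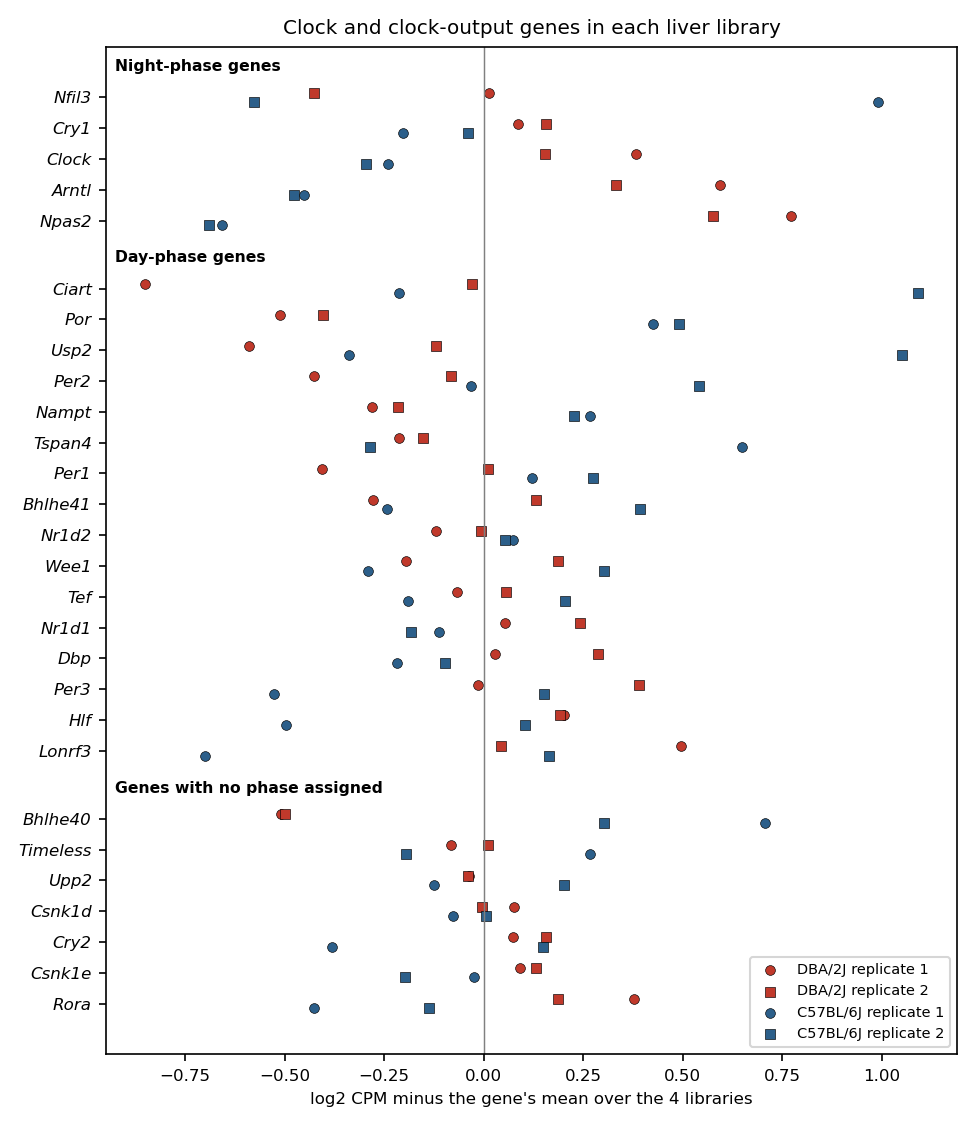
Log2 CPM of each of the 28 genes in each library, minus the mean of that gene over the 4 libraries; red points are DBA/2J and blue points C57BL/6J, circles replicate 1 and squares replicate 2. Arntl, Clock and Rora separate the strains with the DBA/2J points on the right, and Por, Nampt and Bhlhe40 with them on the left. Npas2 also has its DBA/2J points on the right, but it passed the low-count filter only through DBA/2J and was not called. Nfil3 spreads mostly within C57BL/6J, and Ciart spreads widely within both strains.

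Levels per kilobase of exon ordered the genes much alike in both strains at the low end. Npas2, Lonrf3 and Arntl were the 3 least abundant in each strain, with Arntl at 0.697 CPM per kilobase in DBA/2J and 0.365 CPM per kilobase in C57BL/6J. Nr1d1, Upp2, Por and Bhlhe40 held the top 4 places in each strain in a different order. In DBA/2J Nr1d1 led with 73.7 CPM per kilobase, and its libraries, at 68.9 and 78.5, overlapped those of Upp2, at 71.7 and 71.6. In C57BL/6J Por led with 104 CPM per kilobase, and its libraries, at 102.1 and 106.9, lay above those of Bhlhe40, at 94.0 and 71.1. The length used was the deposited sum of exon bases per symbol.

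The directions of day-phase and night-phase genes were also read within each strain, between its 2 libraries. In DBA/2J, 14 of the 16 day-phase genes were higher in replicate 2 than in replicate 1, and 4 of the 5 night-phase genes were lower in it. In C57BL/6J, 12 of the 16 day-phase genes were higher in replicate 2 and 4 of the 5 night-phase genes lower. Some of the night-phase signs came from library scaling alone. Arntl gave 135 and 136 reads in C57BL/6J, and Npas2 gave 9 and 9 there and 24 and 24 in DBA/2J. In DBA/2J, Arntl gave 276 and 264 reads and Clock 3260 and 3191, so their lower CPM in replicate 2 also came mostly from scaling. Over all tested genes 50.9% were higher in replicate 2 in DBA/2J and 51.1% in C57BL/6J. These counts are descriptions, since genes of 1 pair of libraries share that pair and are not replicates.

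The sizes of these differences were not alike in the strains. In DBA/2J the median day-phase gene was higher in replicate 2 by 0.22 on the log2 scale, with Ciart at 0.82 and Usp2, Per1, Bhlhe41, Per3, Wee1 and Per2 between 0.35 and 0.47, while Arntl, Clock and Npas2 stood at -0.26, -0.23 and -0.20. In C57BL/6J the median day-phase gene was higher in replicate 2 by 0.48, and 8 of the 16 differed by more than 1.5-fold (Tspan4 in the opposite direction), against 19.1% of all tested genes. Usp2 stood at 1.39, Ciart at 1.30 and Per3 at 0.68, but Arntl, Clock and Npas2 stood at only -0.02, -0.05 and -0.03, and Nr1d1 at -0.07. Among the night-phase genes of C57BL/6J the difference was carried by Nfil3, at -1.57. The median absolute difference over the 28 genes was 0.19 in DBA/2J and 0.36 in C57BL/6J, against 0.14 and 0.21 over all tested genes.

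**Figure D3:**
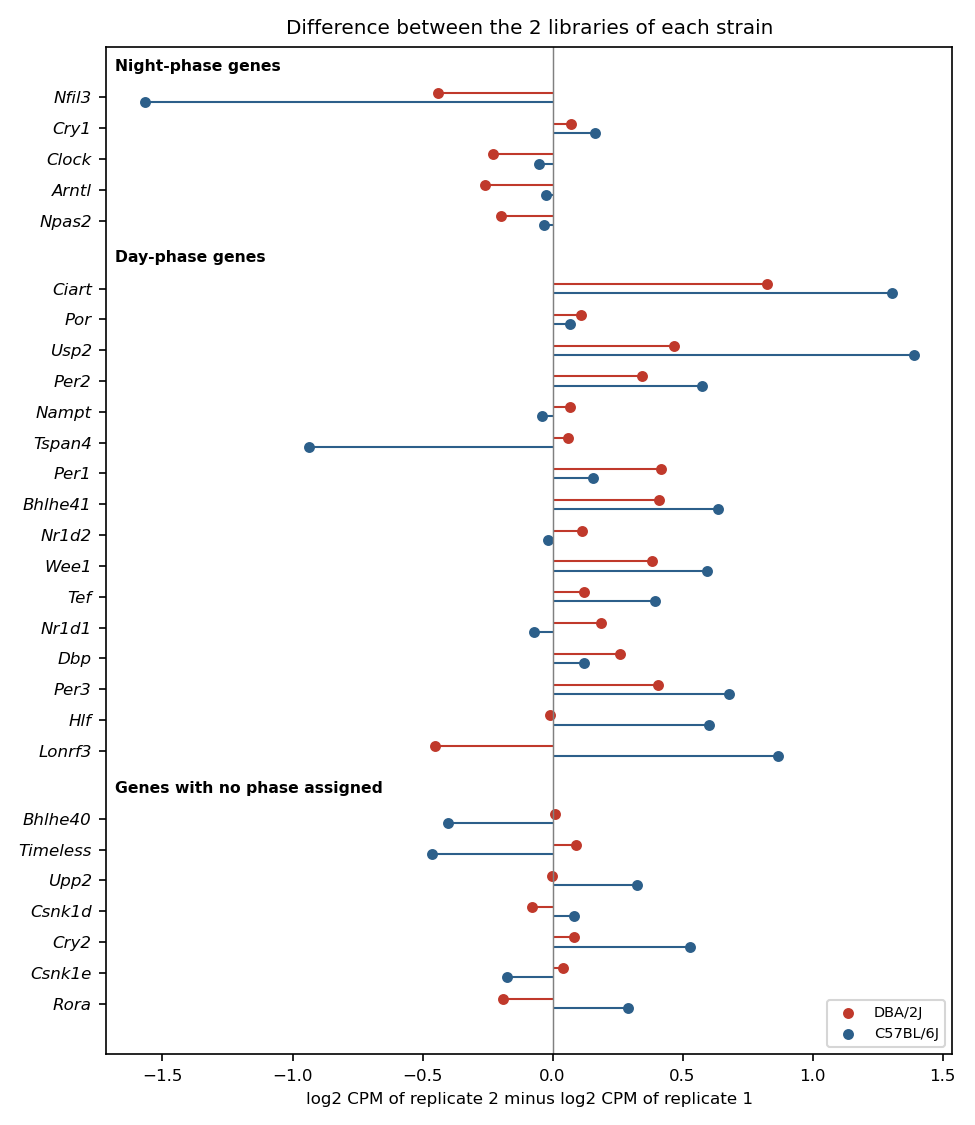
Log2 CPM of replicate 2 minus that of replicate 1 for each of the 28 genes, DBA/2J in red above C57BL/6J in blue. Most day-phase genes lie right of 0 in both strains, with Ciart at 0.82 in DBA/2J and 1.30 in C57BL/6J, and Nfil3 lies left of 0 at -0.44 in DBA/2J and -1.57 in C57BL/6J.

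Ratios of read counts within a library do not depend on how libraries are scaled. Arntl counts were 6.67% and 4.66% of Dbp counts in the DBA/2J livers, against 3.83% and 3.46% in the C57BL/6J livers. The DBA/2J livers were both higher, by a mean of 0.61 on the log2 scale. Relative to Nr1d1, Arntl stood at 2.70% and 1.98% in the DBA/2J livers, against 1.47% and 1.52% in the C57BL/6J livers. Relative to Per2 the gap between strains was wider, with 14.96% and 9.82% in the DBA/2J livers, against 5.51% and 3.64% in the C57BL/6J livers, a mean log2 difference of 1.44. In all 4 libraries Arntl counts were a small part of those of Nr1d1 and Dbp. The ratio of Per3 to Per2 differed between strains and hardly within them. Per3 counts were 116% and 121% of Per2 counts in the DBA/2J livers, against 61.8% and 66.5% in the C57BL/6J livers. The Arntl to Dbp pair was chosen with earlier results of these data known and the other pairs after their values were seen, no test was made on them, and with 2 libraries against 2 no exact permutation test could pass.

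**Figure D4:**
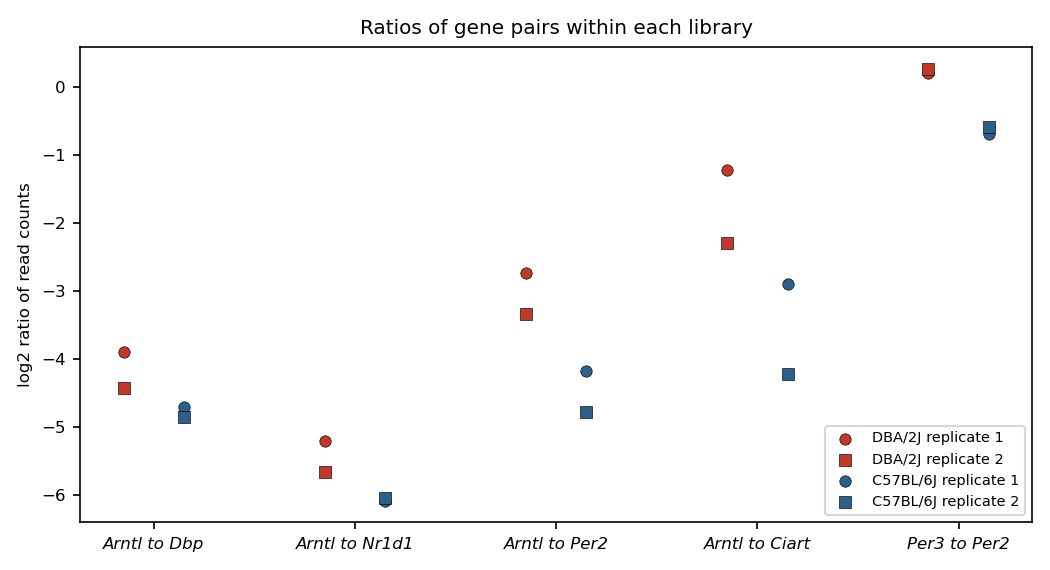
Log2 ratio of the read counts of 5 gene pairs within each library, DBA/2J in red left of C57BL/6J in blue, circles replicate 1 and squares replicate 2. The ratio of Arntl to Dbp is higher in both DBA/2J libraries (-3.91 and -4.42) than in both C57BL/6J libraries (-4.71 and -4.85), and Per3 to Per2 is tight within each strain.

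Other genes of the clock were read from a further list of 27 components, kinases, ubiquitin ligases and cofactors, of which 26 were tested. Of these, 2 were higher and 2 lower in DBA/2J by edgeR, 15.4% against 18.2% of all tested genes, with a median log2 of 0.07. The counts were 6 higher and 1 lower with scaling by library totals alone, 2 and 1 with RLE scaling, 4 and 0 with a minimum mean count of 50, and 0 and 0 without a low-count filter. Arntl2, the paralogue of Arntl, gave 5 and 19 reads in the DBA/2J livers, against 60 and 83 reads in the C57BL/6J livers. It was called lower (log2 -2.64 ± 0.50 SE, edgeR adjusted p = 0.0215), opposite in sign to Arntl. These are low counts, and only C57BL/6J met the minimum count for testing in both libraries. Arntl2 thus entered the test through the strain in which it was higher, so its call is a description only. Ncor1, the corepressor that NR1D1 recruits, had 140.3 and 130.1 CPM in DBA/2J, against 93.3 and 101 CPM in C57BL/6J, and was higher (log2 0.47, edgeR adjusted p = 0.0202). Ep300, an acetyltransferase and coactivator gene, was also higher (log2 0.47, edgeR adjusted p = 0.0254), and Csnk2b, the regulatory subunit of casein kinase 2, was lower (log2 -0.40, edgeR adjusted p = 0.0484). All 4 lost their calls when either of the DBA/2J libraries was left out (the highest edgeR adjusted p was 0.303, of Csnk2b), and Csnk2b also without C57BL/6J replicate 1 (0.0507). Without C57BL/6J replicate 2 there were 7 higher and 3 lower.

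Of 22 further liver genes known to be rhythmic, 3 were higher and 2 lower in DBA/2J, with a median log2 of 0.07. The share called, 22.7%, was near the 18.2% of all tested genes. Lpin1, a phosphatidate phosphatase and lipid coactivator gene, had 65.3 and 51.8 CPM in DBA/2J, against 448 and 377 CPM in C57BL/6J (log2 -2.82 ± 0.16 SE, edgeR adjusted p = 6.42e-04). Coq10b, a coenzyme Q binding protein gene, had 33.0 and 39.0 CPM in DBA/2J, against 85.2 and 81.6 CPM in C57BL/6J (log2 -1.21 ± 0.11 SE, edgeR adjusted p = 0.00238). Both were called with any single library left out (edgeR adjusted p up to 0.0205 and 0.0433). Avpr1a, the vasopressin receptor of liver, was higher (log2 1.30, edgeR adjusted p = 0.00380), a call lost without DBA/2J replicate 1 (0.0648). The transferrin receptor gene Tfrc was higher too (log2 0.70, edgeR adjusted p = 0.0111), a call lost with either of the DBA/2J libraries left out (highest edgeR adjusted p 0.127). Without C57BL/6J replicate 1 there were 3 higher and 4 lower, and without C57BL/6J replicate 2 there were 9 higher and 3 lower.

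Genes that respond to temperature, glucocorticoids and acute stimuli were read from 3 short lists. In the list of 11 genes of temperature response, edgeR called 7 lower and 0 higher in DBA/2J (1 higher at an unadjusted p below 0.05, and 0 in DESeq2). The share called was 63.6%, against 18.2% of all tested genes, and the median log2 was -0.81. Hspa8, a chaperone, had 329 and 407 CPM in DBA/2J, against 1120 and 1057 CPM in C57BL/6J (log2 -1.56, edgeR adjusted p = 0.00242). Hspb1, Hsp90aa1 and Hsph1, which encode further heat shock proteins, were lower too (log2 -2.16, -0.81 and -1.13, edgeR adjusted p = 0.00678, 0.0102 and 0.0154). Cirbp, the cold-induced RNA-binding protein gene, was not called (log2 0.37, edgeR adjusted p = 0.0617). Rbm3, of the same list, was not called either and had the opposite sign (log2 -0.22, edgeR adjusted p = 0.233). Leaving out the first DBA/2J library gave 2 lower genes, leaving out the other gave 3, and dropping the low-count filter gave 4.

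Of 9 glucocorticoid-induced genes, 0 were called in edgeR, against 18.2% of all tested genes. There were 2 lower at an unadjusted p below 0.05 and 2 lower in DESeq2, and the median log2 was -0.38. Tsc22d3 (GILZ) had 118 and 144 CPM in DBA/2J, against 77.7 and 241 CPM in C57BL/6J, and the calls numbered 2 higher and 3 lower without C57BL/6J replicate 1 and 1 higher and 2 lower without C57BL/6J replicate 2. Of 10 tested immediate early genes, 4 were lower and 0 higher in edgeR (0 higher at an unadjusted p below 0.05, and 0 in DESeq2). The share called was 40%, against 18.2% of all tested genes, and the median log2 was -1.65. The 11 listed genes summed to 521 and 459 CPM in DBA/2J replicates 1 and 2. In C57BL/6J replicates 1 and 2 the sums were 1085 and 727 CPM, so replicate 1 was the highest library here too. The 4 lower genes were Jun, Btg2, Egr1 and Zfp36 (log2 -1.12, -2.85, -2.07 and -0.50, edgeR adjusted p = 0.00150, 0.00864, 0.0191 and 0.0431). Jun was called with any library left out, and the lower genes numbered 1 with either of the DBA/2J libraries left out, 9 without C57BL/6J replicate 2 and 2 without a low-count filter.

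Total counts were 48096706 to 52520737 per library, and a count of 3 corresponded to 0.0542 to 0.0622 CPM. All 6 hepatocyte markers were present, the lowest being Hnf4a at 812 to 989 CPM, with 0 called in edgeR, at an unadjusted p below 0.05 and in DESeq2. Of the markers of other cells, the summed level of 5 cholangiocyte genes was 23.9 and 24.6 CPM in DBA/2J, against 76.5 and 49.8 CPM in C57BL/6J, with 1 gene called (Spp1, lower). The sum of 5 stellate cell genes was 189 and 238 CPM in DBA/2J, against 152 and 103 CPM in C57BL/6J, with 1 gene called (Reln, higher), and 4 without C57BL/6J replicate 1. The sums of 6 Kupffer cell genes (106 to 136 CPM) and of 6 endothelial genes (142 to 203 CPM) overlapped between strains, with Marco and Lyve1 called lower and Stab2 higher. Summed levels of 4 neutrophil genes were 0.497 and 0.253 CPM in DBA/2J, against 5.89 and 0.260 CPM in C57BL/6J, with Ly6g and Retnlg at 0 in some libraries. Those of 7 lymphocyte genes were 1.60 and 1.97 CPM in DBA/2J, against 3.30 and 1.16 CPM in C57BL/6J, with Cd8a at 0 in a library. The 4 erythroid genes summed to 314 and 271 CPM in DBA/2J, against 156 and 195 CPM in C57BL/6J, with Alas2 called higher. The 14 acute phase genes summed to 21086 and 17983 CPM in DBA/2J, against 38923 and 22474 CPM in C57BL/6J. Orm1 and Crp were called lower and Apcs higher, 21.4% of the list against 18.2% of all tested genes. The lower acute phase genes numbered 8 in DESeq2, 5 without C57BL/6J replicate 1, 10 without C57BL/6J replicate 2, 6 with a replicate block, 1 without a low-count filter and 0 with either of the DBA/2J libraries left out. C57BL/6J replicate 1, the library with the highest Nfil3, Tspan4 and Bhlhe40, thus also stood apart in acute phase and neutrophil genes. The part of these markers in the strain differences was not tested. In RNA of whole liver, fewer cells of a type and less RNA per cell cannot be told apart.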

How the data were processed

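Liver poly(A) RNA of 4 mice, 2 DBA/2J and 2 C57BL/6J, was sequenced as 100-base single-end reads at a stated depth near 51 M per sample, per the labels' protocols. The deposited values are raw read counts per gene symbol. Per the file headers they were made by featureCounts 2.0.1 on exons of Ensembl release 88 (GRCm38), with no option for strand or for reads with several alignments. The headers also carry -p, an option for paired reads, which is at odds with the single-end reads of the labels. The submitters' processing notes name STAR 2.4.0g1 and featureCounts 1.5.2. The reference is that of C57BL/6J, so DBA/2J reads that carry strain variants can align less often. The other measurement deposited by the authors is the summed exon length of each symbol, used for levels per kilobase.

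Groups were taken from the strain label. Counts were tested across all genes with edgeR 4.0.16 (R 4.3.3), quasi-likelihood F test, legacy=FALSE, TMM scaling, strain as the only term, filterByExpr with a minimum count of 10, which kept 15647 genes including all 28 clock genes, and Benjamini-Hochberg adjustment, two-sided. A standard error is the log2 difference divided by the root of F, and CPM used TMM-scaled library sizes. The procedure was tested on simulated data. It recovered 11.6% of planted log2 differences of 0.5, 60% of those of 1 and 95.6% of those of 2. Of its calls there, 5.01% were false. A gene that did not pass the test can therefore still differ by such an amount. Alternatives were DESeq2 1.42.0, RLE and total scaling, the older edgeR form, other filters, a replicate block and each library left out. With 1 library left in a strain, that library is assumed to vary like the other strain's pair. Values are described for all 28 genes and, in other lists, for up to 4 called genes with the lowest adjusted p and those needed to describe counts of 5 or fewer. Tsc22d3, Cirbp, Rbm3 and the ratios other than Arntl to Dbp were chosen after their values were seen. Some genes counted in these lists are not reported here by name. The clock genes, the lists, their phases and the tests were chosen with earlier results of these data known. Motifs were searched in RefSeq promoter windows (GRCm38.p6).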

Additional observations from a re-analysis of the deposited data

How the results depend on the processing

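Leaving out single libraries moved the results most. Over these 4 fits, clock genes called higher ranged from 0 to 7 and lower from 0 to 6, night-phase genes higher from 0 to 2 and lower from 0 to 1, day-phase genes higher from 0 to 3 and lower from 0 to 5, and all genes higher from 186 to 2450 and lower from 106 to 2455. The log2 difference of the Arntl to Dbp ratio ranged from 0.35 to 0.87. Without a low-count filter 809 genes were higher and 707 lower, with 1 clock gene higher, the night-phase gene Arntl; Clock and Rora had edgeR adjusted p values of 0.0592 and 0.0927 there. RLE scaling, DESeq2, the older edgeR form and a minimum mean count of 50 changed no call or direction of the clock genes they tested; Npas2 was not tested under the last. Scaling by library totals alone turned Tef to 0.057 and Wee1 to 0.057 and gave 1924 higher and 1024 lower genes.

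The directions of 9 uncalled genes changed when 1 library was left out. Over these 4 fits the log2 difference ranged from -1.18 to 0.38 for Nfil3 and from -0.83 to 0.099 for Tspan4, each highest without C57BL/6J replicate 1. It ranged from -0.21 to 0.18 for Tef, from -0.45 to 0.19 for Bhlhe41, from -1.39 to 0.0021 for Usp2, from -0.30 to 0.30 for Wee1, from -0.25 to 0.083 for Upp2 and from -0.038 to 0.49 for Cry2, each lowest without C57BL/6J replicate 1 and highest without C57BL/6J replicate 2. For Timeless it ranged from -0.30 to 0.16, highest without C57BL/6J replicate 1. The cause was not tested.

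Both strains carry the replicate numbers 1 and 2 in their titles, but nothing in the labels pairs same-numbered animals. Differences between replicates 2 and 1 correlated between strains at r = 0.017 over 15647 genes and at r = 0.63 over the 28 clock genes. The same sign was seen in 16 of the 28 (57.1%), against 47.6% of all tested genes. This r comes from 1 pair of libraries per strain and includes the large differences of Nfil3, Ciart and Usp2. With a replicate block the fit called 5 clock genes lower, 4 of them day-phase genes, the additions being Per2 (edgeR adjusted p = 0.0287) and Ciart (edgeR adjusted p = 0.0158), and 3 higher. Counting error limits Npas2 and Lonrf3, the clock genes with under 100 counts in every library.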
